A study of Gallus gallus with 28 samples.

Results

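Gene expression in the intestine of male chicks was compared between day 7 and day 3 after hatch, with 4 arrays at each age. The arrays were chosen by their age labels alone, and these 8 are part of an age series of 28 Affymetrix chicken arrays. That series holds 4 arrays at each of 7 ages, namely embryonic days 18 and 20, hatch itself, and then 1, 3, 7 and 14 days of age. Each array carried biotin-labelled RNA, and the labels give 6 male birds per age, a tissue called whole intestine in one place and small intestine in another, and no treatment or diet. Both ages were drawn from 2 lines of birds, called A and B, and from 2 pools, but neither line nor pool is given per array. The p-values therefore set a difference between ages against the spread of arrays within an age, pooled over all 28 arrays. Nothing shows how much of that spread is technical.

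The chick hatches with an intestine that holds few lymphocytes, and T cells, B cells and antigen-presenting cells settle in the mucosa over the following days. Plasma cells of the gut make dimeric IgA, whose parts are held together by the J chain (JCHAIN) and which the polymeric immunoglobulin receptor (PIGR) carries through the epithelium into the lumen. Over the same period villi lengthen, crypts form, and dividing cells become restricted to the crypts.

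Values are log2 intensities unless said otherwise, and a change is the day 7 mean minus the day 3 mean. A gene was called where limma, fitted to all 28 arrays with one mean per age, gave a Benjamini-Hochberg adjusted p under 0.05 over the 8396 genes tested. A gene was tested if its log2 value was over 4 in at least 4 of the 28 arrays. An array's background was the 95th percentile of 541 probe sets with IDs beginning NC-, and lay between 3.10 and 3.36 at day 7 and between 3.25 and 3.39 at day 3. All 6 epithelial markers (VIL1, FABP2, SI, CDX1, CDX2 and ANPEP) were above background at both ages, with summed linear intensities of 65300 to 71900 at day 7 and 55000 to 66900 at day 3. Arrays correlated at 0.982 to 0.993 within day 7, at 0.982 to 0.990 within day 3 and at 0.958 to 0.985 between these ages, across genes, which are not independent replicates. Day 7 arrays 1 and 2 were close to each other (0.993), as were arrays 3 and 4 (0.992). The other pairs of day 7 arrays reached 0.982 to 0.986. Day 3 had the same closest pairs, arrays 1 and 2 (0.988) and arrays 3 and 4 (0.990), with 0.982 to 0.987 for its other pairs. The labels do not say what these pairs share. Day 3 array 1 stood apart in exocrine pancreas genes, whose mean level was 6.04 there and 3.59 to 4.00 on the other day 3 arrays, against 3.87 to 4.96 at day 7. Day 3 array 3 stood high in GKN2, a secreted gastrokine chosen here after its values were seen, at 12.06 against 2.77 to 8.77 on the other day 3 arrays.

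Of the 8396 genes tested, 426 were called higher at day 7 (5.07%) and 704 lower (8.38%), and the median change over all genes was -0.03. Median centring of the arrays gave 466 higher and 588 lower, and quantile normalization 499 higher and 552 lower, so the share of higher calls moved between 37.7% and 47.5%. The number called rested on single arrays, with 208 higher and 353 lower without day 7 array 3, 243 and 407 without day 7 array 4, and 198 and 382 without day 3 array 1. All 4 day 7 arrays lay above all 4 day 3 arrays for 490 genes (5.84%), and below them for 866 (10.3%). For the lists given below with 0 genes called in the opposite direction at day 7, limma's unadjusted p under 0.05 held for 0 genes in that direction, except for 2 of antigen presentation and for 1 T cell gene with no filter. Where a call on a named gene was lost when a single array was left out, this is said beside it. It is not given for SLC3A1 or for the insulin-like growth factor and fetal growth genes.

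The largest rises of the whole comparison were in immunoglobulin genes. IGLL1 (gene ID 416928), annotated as an immunoglobulin lambda-like chain, stood at 8.75, 9.40, 8.37 and 7.10 on the day 7 arrays, against 3.15, 3.11, 3.12 and 3.17 on the day 3 arrays. JCHAIN (gene ID 374117) read 7.88, 8.25, 7.84 and 6.14 at day 7, against 2.63, 2.59, 2.60 and 2.58 at day 3. Both genes were at background on all 4 day 3 arrays and above it on all 4 day 7 arrays, with day 7 array 4 the lowest for each. IGLL1 was at least 34.5-fold higher at day 7 (limma adjusted p = 1.67e-12), and JCHAIN was at least 18.7-fold higher (limma adjusted p = 1.67e-12). In tissue RNA, fewer cells of a type and less RNA per cell cannot be told apart, here and in every result on cell type genes that follows.

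The epithelial carrier of these antibodies moved in the same interval. PIGR (gene ID 419848) stood at 11.77, 11.47, 11.20 and 11.49 at day 7, against 8.59, 7.89, 8.93 and 7.89 at day 3. The nearest arrays of the ages were 2.27 log2 units apart, and PIGR was already above background on every day 3 array. It rose by 3.16 ± 0.34 (SE, limma adjusted p = 7.94e-07), or 8.93-fold. Other members of the B cell and immunoglobulin list were called as well. CD38, an ectoenzyme of plasma cells and other lymphocytes, rose by 1.16 ± 0.21, and the signalling kinases SYK and BTK by 0.98 ± 0.12 and 0.97 ± 0.17. The remaining tested members, EBF1 and RASGRP3, changed by -0.04 and 0.11 and were not called. They are named here after their values were seen. With no filter on low values, 5 of the 21 annotated genes of the B cell and immunoglobulin list were called higher and 0 lower, where 3.02% of all 13009 genes were called higher and 4.8% lower. Their median change was 0.02, and 3 of the 7 genes that passed the filter did so only through day 7 or day 14 arrays. The B cell markers CD79B (2.96 to 3.01 at day 7, 2.96 to 2.98 at day 3) and PAX5 (3.36 to 3.54 at day 7, 3.46 to 3.55 at day 3) were at or near background at both ages and were not tested. Summed over the B cell markers, linear intensity was 88.8 to 323 at day 7 and 24.8 to 25.8 at day 3. JCHAIN made up 79.7% to 94.0% of the day 7 sum, and without it the sum was 18.0 to 19.6 at day 7 and 18.8 to 19.6 at day 3.

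T cell receptor genes rose from a level already above background at day 3. CD3E (gene ID 396062), a signalling chain of the receptor, stood at 9.18, 9.03, 9.68 and 9.36 at day 7, against 6.98, 7.51, 7.74 and 8.10 at day 3. TRBV6-5 (gene ID 768756), a variable segment of the receptor beta chain, stood at 7.57, 7.28, 7.80 and 7.34 at day 7, against 3.59, 5.07, 4.36 and 4.96 at day 3. Neither gene overlapped between the ages, and day 7 array 3 was the highest and day 3 array 1 the lowest for both. CD3E rose by 1.73 ± 0.22 (SE, limma adjusted p = 7.27e-06), CD3D, another chain of the same complex, by 1.87 ± 0.22, and TRBV6-5 by 3.00 ± 0.20 (SE, limma adjusted p = 1.86e-10). The signalling chain CD247 rose by 1.30 ± 0.24. CD7, a surface protein of T and NK cells, was at background on all day 3 arrays and at least 1.85-fold higher at day 7. CD40LG, the helper T cell ligand of CD40, rose by 0.89 ± 0.21, although its lowest day 7 array (3.81) lay below its highest day 3 array (3.85).

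Other T cell genes were close to background. CD4 stood at 2.67, 4.15, 2.55 and 3.19 at day 7, against 2.55, 2.57, 2.57 and 2.55 at day 3, so that 2 of 4 day 7 arrays were above background. It was not called (limma adjusted p = 0.0556), though it was called without day 7 array 1 or without day 7 array 3. CD8A stood at 3.45 to 3.77 at day 7 and 3.25 to 3.51 at day 3, and LCK was at background on all 8 arrays. Neither was tested. With no filter, 7 of the 35 annotated T cell genes were called higher and 0 lower, beside 3.02% and 4.8% of all 13009 genes. The median change of the 35 was 0.06, beside -0.01 for all genes. Of the 11 T cell genes tested, 5 passed the filter only through day 7 or day 14 arrays, so the 8 called among them are not a share to set against other genes. Summed T cell markers reached 566 to 856 in linear intensity at day 7, against 153 to 304 at day 3. CD3E made up 92.6% to 96.0% of the sum at day 7 and 82.4% to 90.6% at day 3, and without it the sum was 30.0 to 41.8 at day 7 and 26.9 to 29.1 at day 3.

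**Figure D1:**
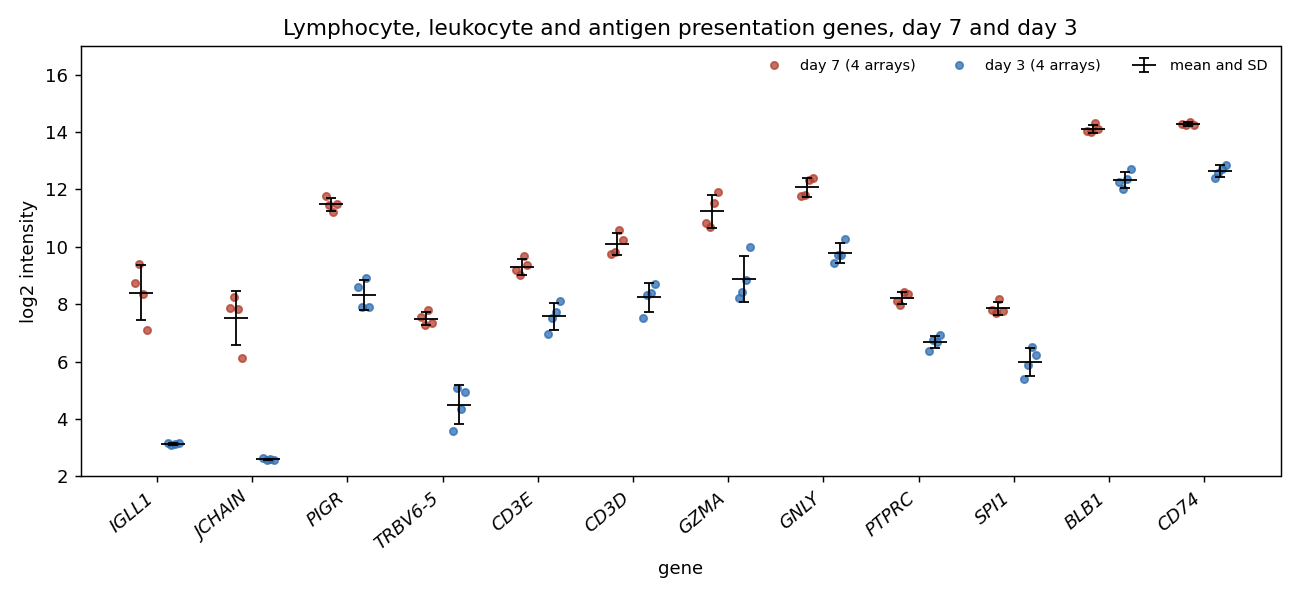
Log2 intensity of 12 lymphocyte, leukocyte and antigen presentation genes on each of the 4 day 7 arrays (red, left of each pair) and the 4 day 3 arrays (blue, right), with the mean and SD in black. For every gene drawn the ages do not overlap, and IGLL1 and JCHAIN lie at background at day 3, near 3.14 and 2.60, with 8.41 and 7.53 as their day 7 means.

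The plot of immune genes by array shows where the spread lay. Day 3 arrays 1 to 4 were scattered over 1.12 log2 units for CD3E and over 1.80 for GZMA, while the day 7 arrays of CD74 lay within 0.13.

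Of the 13 annotated genes of killer lymphocytes, 4 were called higher with no filter and 0 lower, beside 3.02% and 4.8% of all 13009 genes. The median change of the 13 was 0.12. GZMA (gene ID 395108), a granule protease, stood at 10.84, 10.70, 11.54 and 11.91 at day 7, against 8.21, 8.42, 8.86 and 10.01 at day 3. GNLY (gene ID 693257), the chicken NK-lysin, an antimicrobial granule peptide, stood at 11.77, 11.80, 12.32 and 12.39 at day 7, against 9.43, 9.70, 9.70 and 10.27 at day 3. For both genes day 3 array 4 was the highest of its age and the ages did not overlap. GZMA rose by 2.37 ± 0.26 (SE, limma adjusted p = 8.35e-07) and GNLY by 2.30 ± 0.18 (SE, limma adjusted p = 3.65e-09). GZMK, a related protease, was above background on only 1 day 3 array (3.35) and stood at 4.66 to 5.91 at day 7. It was called (limma adjusted p = 1.51e-07), and with 3 of the day 3 arrays at background no size is given. XCL1, a chemokine of T and NK cells, rose by 2.15 ± 0.19, and CD244, a receptor of NK and T cells, by 1.29 ± 0.18. IL16, a chemoattractant for T cells, rose by 2.35 ± 0.25. The chemokine and cytokine list gave few calls, with 3 of 31 annotated members higher and 2 lower with no filter. Of all 13009 genes, 3.02% were then called higher and 4.8% lower, and the median change of the list was -0.01. Of the 16 tested, 3 were called higher and 1 lower (6.25%, beside 8.38% of all genes). The higher count was 5 without day 7 array 2 or day 3 array 4, and 2 without day 7 array 3 or 4. Of these 16, 4 passed the filter only through day 7 or day 14 arrays, so the 3 are not a share to set against other genes. IL8L2, a heterophil attractant of the IL8 family, fell by 1.77 ± 0.38 (SE, limma adjusted p = 0.00307). It stood at 5.40, 4.61, 4.46 and 3.12 at day 7, against 6.81, 5.64, 6.97 and 5.26 at day 3.

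Many genes shared by white blood cells rose. PTPRC (gene ID 386580), the leukocyte common antigen CD45, stood at 8.13, 7.99, 8.44 and 8.36 at day 7, against 6.38, 6.75, 6.69 and 6.92 at day 3. The nearest arrays of the ages were 1.07 log2 units apart, and PTPRC rose by 1.55 ± 0.16 (SE, limma adjusted p = 5.88e-07), or 2.92-fold. With no filter, 18 of the 36 annotated pan-leukocyte genes were called higher and 0 lower, beside 3.02% and 4.8% of all 13009 genes. The median change of the 36 was 0.60. LCP2, an adaptor of receptor signalling, rose by 2.01 ± 0.19, IL2RG, the common chain of several interleukin receptors, by 1.68 ± 0.18, and DOCK8, a regulator of leukocyte migration, by 1.77 ± 0.30. SAMSN1 (gene ID 418470), an adaptor of blood cells, was at background on all day 3 arrays and at least 4.74-fold higher at day 7, and EVI2A at least 2.32-fold. Of 7 heterophil granule genes tested, 0 were called by limma in either direction and 1 had an unadjusted p under 0.05. Their median change was 0.39, and 2 had day 7 arrays that were all higher, beside 5.84% of all genes. The heterophil marker CATH1 was at background on all 8 arrays.

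Part of the macrophage and dendritic cell genes rose as well. With no filter, 10 of 30 annotated members were called higher and 1 lower, beside 3.02% and 4.8% of all 13009 genes. SPI1 (gene ID 395879), the transcription factor PU.1 of myeloid and B cells, stood at 7.81, 7.68, 8.19 and 7.77 at day 7, against 5.38, 5.87, 6.52 and 6.22 at day 3. It rose by 1.86 ± 0.23 (SE, limma adjusted p = 6.09e-06) with no overlap between the ages. LY96, a partner of the endotoxin receptor, rose by 1.87 ± 0.22, TIMD4, a receptor for dying cells, by 1.54 ± 0.25, and the scavenger receptor MARCO by 1.50 ± 0.27. CSF1R, the receptor of the macrophage growth factor CSF1, rose by 0.81 ± 0.14. C1QA, a part of complement C1q, rose by 1.17 ± 0.30, a call lost without day 7 array 3 or without day 3 array 1. BATF3, a transcription factor known in mice for a class of dendritic cells, was the member called lower. It stood at 7.69, 7.50, 7.05 and 6.67 at day 7, against 9.27, 8.69, 8.78 and 8.38 at day 3, and fell by 1.55 ± 0.36 on the log2 scale (SE, limma adjusted p = 0.00605).

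Of 16 antigen presentation genes tested, 6 were called higher and 0 lower, with a median change of 0.23. Of these 16, 1 passed the filter only through day 7 or day 14 arrays. With no filter, 6 of the 21 annotated members were called higher and 0 lower, with a median change of 0.2. Of all 13009 genes, 3.02% were then called higher and 4.8% lower. BLB1 (gene ID 693256), a class II beta chain, stood at 14.04, 13.99, 14.30 and 14.11 at day 7, against 12.25, 12.02, 12.35 and 12.71 at day 3. CD74 (gene ID 414741), the invariant chain that guides class II molecules, stood at 14.28, 14.23, 14.36 and 14.26 at day 7, against 12.40, 12.59, 12.71 and 12.86 at day 3. These transcripts were tightly grouped at day 7, and the lowest day 7 array lay 1.28 (BLB1) and 1.37 (CD74) log2 units above the highest day 3 array. BLB1 rose by 1.78 ± 0.12 (SE, limma adjusted p = 3.43e-10) and CD74 by 1.65 ± 0.12 (SE, limma adjusted p = 4.92e-10). The peptide loader DMA rose by 2.07 ± 0.21 and the reductase IFI30 of the loading compartment by 0.98 ± 0.15. CIITA, the activator of class II genes, was at background at day 3 and at least 2.40-fold higher at day 7. BF2, a class I heavy chain, averaged 12.72 ± 0.26 at day 7 and 12.49 ± 0.62 at day 3 (SD, n = 4 arrays each), and its change of 0.23 ± 0.49 was not called (limma adjusted p = 0.813). B2M, the light chain of class I, stood at 14.71 to 14.76 at day 7 and 14.44 to 14.55 at day 3, a change of 0.23 ± 0.12 that was not called (limma adjusted p = 0.227). Among other members not called were LGMN, a protease of the class II pathway, at 0.22 and TAPBP, a class I loader, at 0.25. PDIA3, CALR and TAP1 had changes below 0, at -0.679, -0.485 and -0.181, and were not called either. These members were named after their values were seen. Of the 16 tested, 13 had a change above 0 and 3 below. The difference between class II and class I genes was not tested.

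Genes of red blood cells held both directions. Of 5 tested, limma called 1 higher, HBAD, and 1 lower, the transferrin receptor TFRC, beside 5.07% and 8.38% of all genes. HBA1, a globin chain, stood at 12.63, 12.54, 13.10 and 12.12 at day 7, against 11.22, 10.92, 12.22 and 11.80 at day 3. Its ages overlapped, and it was not called. HBAD, another globin chain, rose by 1.23 ± 0.38 (SE, limma adjusted p = 0.0303), a call lost without any one of day 7 array 1, day 7 array 3, day 3 array 1 and day 3 array 2. Summed over the 2 annotated erythroid markers, linear intensity was 5490 to 11500 at day 7 and 2370 to 5910 at day 3, and its part in the leukocyte rises was not tested. In the next interval HBAD fell by 1.76 on the log2 scale at day 14 against day 7 (limma adjusted p = 0.0195). There CD3E changed by 0.50 (limma adjusted p = 0.398) and PTPRC by 0.59 (adjusted p = 0.0987). Neither of these leukocyte changes was called. There, with no filter, 5 of 35 T cell, 5 of 21 B cell and 1 of 36 pan-leukocyte genes were called higher. Those called lower were 0, beside 46 higher and 34 lower of all 13009 genes. No relation between the changes of HBAD and of leukocyte genes was tested.

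Some interferon response genes, which cells switch on against viruses, fell. RSAD2 (gene ID 428650), the antiviral enzyme viperin, stood at 3.45, 3.50, 3.76 and 3.09 at day 7, against 6.61, 6.53, 6.23 and 5.32 at day 3. CMPK2 (gene ID 421921), a nucleotide kinase induced beside it, stood at 3.74, 2.60, 4.04 and 3.65 at day 7, against 6.47, 6.51, 5.55 and 4.67 at day 3. The day 7 arrays of both genes were near background and below every day 3 array, of which array 4 was the lowest. RSAD2 fell by 2.72 ± 0.69 on the log2 scale (SE, limma adjusted p = 0.0105) and CMPK2 fell by 2.29 ± 0.49 (SE, limma adjusted p = 0.00289). DHX58, a sensor of viral RNA, fell by 1.67 ± 0.45, a call lost without day 7 array 4 or without day 3 array 1. OASL and IFIT5, named here after their values were seen, had lower day 7 arrays throughout, with changes of -1.98 ± 0.76 and -1.84 ± 0.86 that were not called (limma adjusted p = 0.0885 and 0.164).

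Of the 26 interferon response genes tested, 6 were called lower (23.1%) and 0 higher, beside 8.38% and 5.07% of all genes. Their median change was -0.70. All day 7 arrays lay below all day 3 arrays for 12 of the 26, beside 10.3% of all genes. Only 2 were called without day 7 array 4 or without day 3 array 1, and 3 without day 3 array 3. When the day 7 and day 3 arrays were fitted alone, 11 were called. The arrays of other ages differed widely in these genes. RSAD2 covered 3.77 to 8.56 at day 14 and CMPK2 2.50 to 4.70 at day 1, and that spread enters the fit over all ages. Between day 3 and day 1, 21 of the 26 were called higher and 0 lower, where 15.0% of all genes were called higher and 10.7% lower. The change between day 3 and day 7 was lower than that between day 1 and day 3 for 17 of the 26. It was higher for 0, beside 8.74% lower and 4.45% higher of all genes. At an unadjusted p under 0.05 limma also gave 0 genes in those opposite directions. Between day 14 and day 7 the median change of the 26 was 0.98, with 1 called higher and 0 lower. There limma's unadjusted p was under 0.05 for 17 higher and 0 lower, beside 420 and 459 of all 8396 genes.

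**Figure D2:**
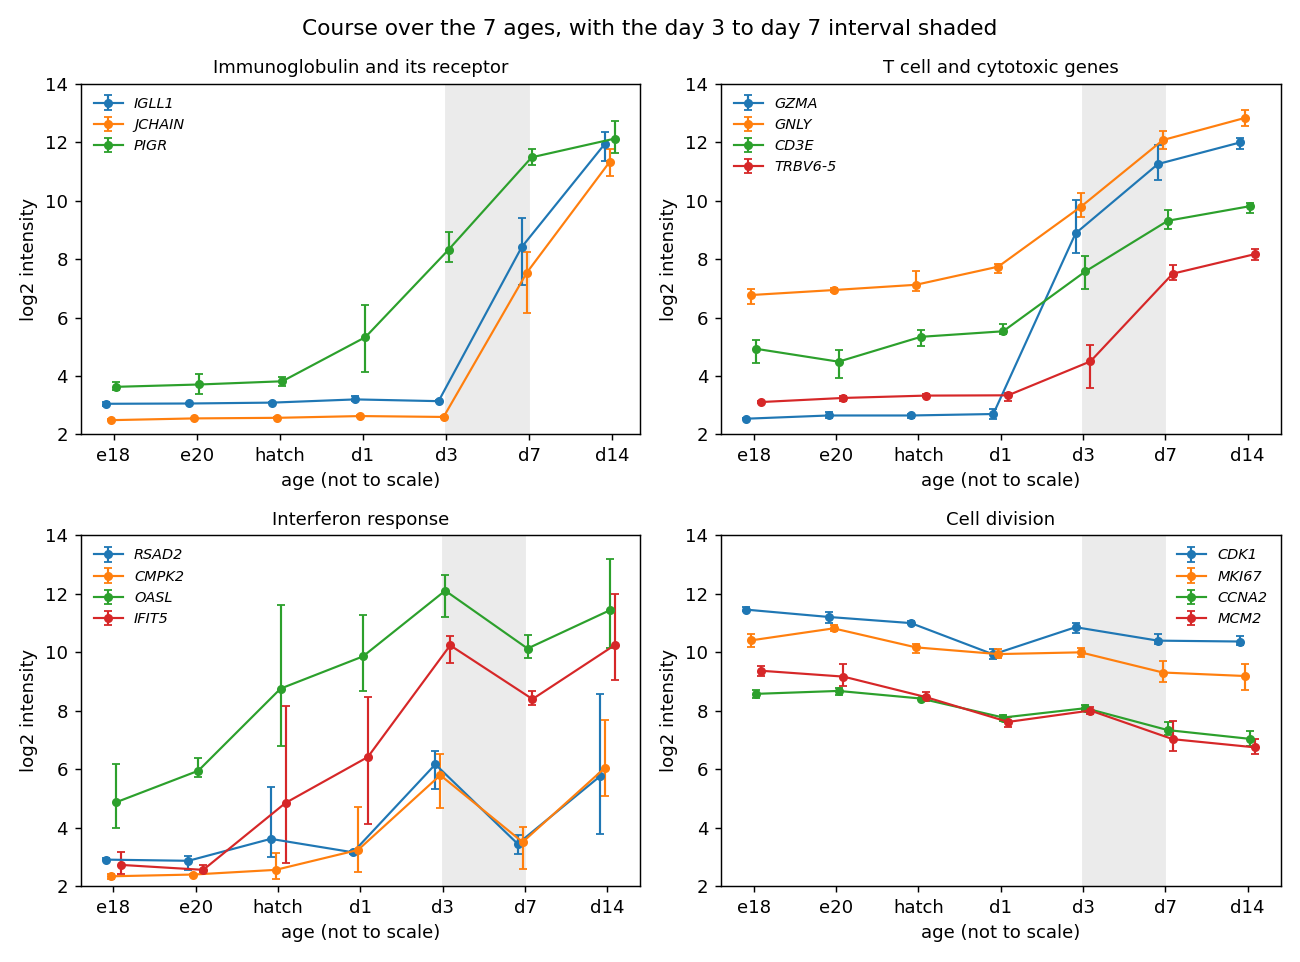
Mean log2 intensity at the 7 ages in order (embryonic days 18 and 20, hatch itself, then 1, 3, 7 and 14 days; 4 arrays each), with bars from the lowest to the highest array and the day 3 to day 7 interval shaded. IGLL1 and JCHAIN leave background only after day 3, GZMA leaves it between day 1 and day 3, and the interferon and cell division genes drawn have lower means at day 7 than at day 3.

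The course over the 7 ages places these changes in order. GZMA averaged 2.70 at day 1, 8.88 at day 3, 11.25 at day 7 and 11.99 at day 14. GNLY averaged 7.74, 9.78, 12.07 and 12.83 at the same ages, and IGLL1 3.20, 3.14, 8.41 and 11.94. The change of IGLL1 between day 3 and day 7 exceeded that between day 1 and day 3 (limma adjusted p = 6.68e-08), while that of GZMA was smaller (limma adjusted p = 6.57e-06). No size is given for these differences, since GZMA at day 1 and IGLL1 at day 1 and day 3 were at background, which was 3.37 to 3.54 at day 1. For CD3E, PTPRC and SPI1 the difference of these intervals was -0.33, 0.08 and 0.03 and was not called (limma adjusted p = 0.642, 0.913 and 0.975). Both intervals share the day 3 arrays. They differ in length and no change was divided by days, so an equal change is not an equal pace.

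Many genes of DNA copying fell. MCM2 (gene ID 416027), a subunit of the helicase that opens DNA for copying, stood at 7.04, 7.64, 6.81 and 6.64 at day 7, against 8.13, 7.90, 8.03 and 7.99 at day 3. MCM5 (gene ID 418058), a partner in the same ring, stood at 7.14, 7.61, 6.26 and 6.65 at day 7, against 8.19, 7.95, 8.05 and 7.80 at day 3. Day 7 array 2 was the highest of its age for both and still lay below every day 3 array. MCM2 fell by 0.98 ± 0.17 on the log2 scale (SE, limma adjusted p = 0.000482) and MCM5 fell by 1.08 ± 0.21 (SE, limma adjusted p = 0.00116). SLBP, which binds histone messages, fell by 1.56 ± 0.32 on the log2 scale, the licensing factor CDT1 fell by 1.01 ± 0.18 and the repair protein BRCA1 fell by 0.99 ± 0.24. PCNA, the sliding clamp of the polymerases, fell by 0.57 ± 0.18 (SE, limma adjusted p = 0.0391), a call lost without day 7 array 3 or 4, or without day 3 array 1, 3 or 4. Of 53 members tested, 22 were called lower (41.5%) and 0 higher, beside 8.38% and 5.07% of all genes. A change below 0 was found for 51, beside 4708 of all 8396 genes, and the median of the list was -0.40. The count called lower was 12 without day 7 array 3 and 13 without day 7 array 4.

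Mitosis genes held the largest count of falls of the 29 lists. CDK1 (gene ID 396252), the kinase that drives entry into mitosis, stood at 10.41, 10.62, 10.31 and 10.28 at day 7, against 10.79, 10.66, 10.99 and 10.98 at day 3. CCNA2 (gene ID 396172), a cyclin of the S and G2 phases, stood at 7.35, 7.63, 7.22 and 7.16 at day 7, against 8.07, 8.02, 8.20 and 8.08 at day 3. For CDK1 the gap between the nearest arrays of the ages was only 0.04, whereas for CCNA2 it was 0.39. CDK1 fell by 0.45 ± 0.10 on the log2 scale (SE, limma adjusted p = 0.00306) and CCNA2 fell by 0.75 ± 0.11 (SE, limma adjusted p = 6.67e-05). MKI67, a marker of cycling cells, fell by 0.69 ± 0.16, KIF20B, a motor of cell separation, fell by 1.23 ± 0.21, and the chromosome condenser SMC2 fell by 0.95 ± 0.16. TOP2A, which untangles DNA, fell by 0.86 ± 0.19, with day 7 array 2 (8.20) above day 3 array 3 (8.10). The cell cycle repressor E2F7 (gene ID 417868), listed among the largest falls, stood at 3.06 to 4.22 at day 7 and 5.28 to 5.39 at day 3 and fell by 1.81 ± 0.26.

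Of 68 mitosis genes tested, 47 were called lower (69.1%) and 0 higher, and 39 had all day 7 arrays below all day 3 arrays. Of all genes, 8.38% were called lower, 5.07% higher, and 10.3% had all day 7 arrays below all day 3 arrays. The median change of the mitosis genes was -0.62, and 35 to 49 of them were called lower whichever single array was left out. The mean level of the list was 7.21, 7.44, 6.91 and 7.08 on the day 7 arrays, against 7.75, 7.69, 7.71 and 7.78 on the day 3 arrays. Day 3 arrays were nearly level, and the day 7 arrays covered 0.53 log2 units, with array 2 nearest to day 3. A fall had also come before this interval. The mean level of the list was 8.47 to 8.56 at embryonic day 18, 7.91 to 7.98 at hatch and 7.29 to 7.50 at day 1.

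The interval before gave the opposite direction. Between day 3 and day 1, 22 mitosis genes were called higher and 0 lower, with a median change of 0.32, where 15.0% of all genes were called higher and 10.7% lower. Median centring turned the split of all genes between day 3 and day 1 to 908 higher and 1454 lower, beside 1263 and 897, and then called 17 mitosis genes higher and 0 lower. The change between day 3 and day 7 was lower than that between day 1 and day 3 for 41 mitosis genes and higher for 0, beside the shares of all genes given for the interferon genes. Among them CDK1 averaged 9.93 at day 1, 10.86 at day 3, 10.40 at day 7 and 10.37 at day 14. MKI67 averaged 9.94, 10.00, 9.31 and 9.19 at these ages. The intervals share the day 3 arrays, and median centring changed the split of all genes in the comparison of intervals to 584 higher and 493 lower, beside 374 and 734, with 34 mitosis genes lower and 0 higher. Between day 14 and day 7, limma called 0 mitosis genes in either direction and gave 2 an unadjusted p under 0.05, with a median change of -0.09, where 0.858% of all genes were called.

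**Figure D3:**
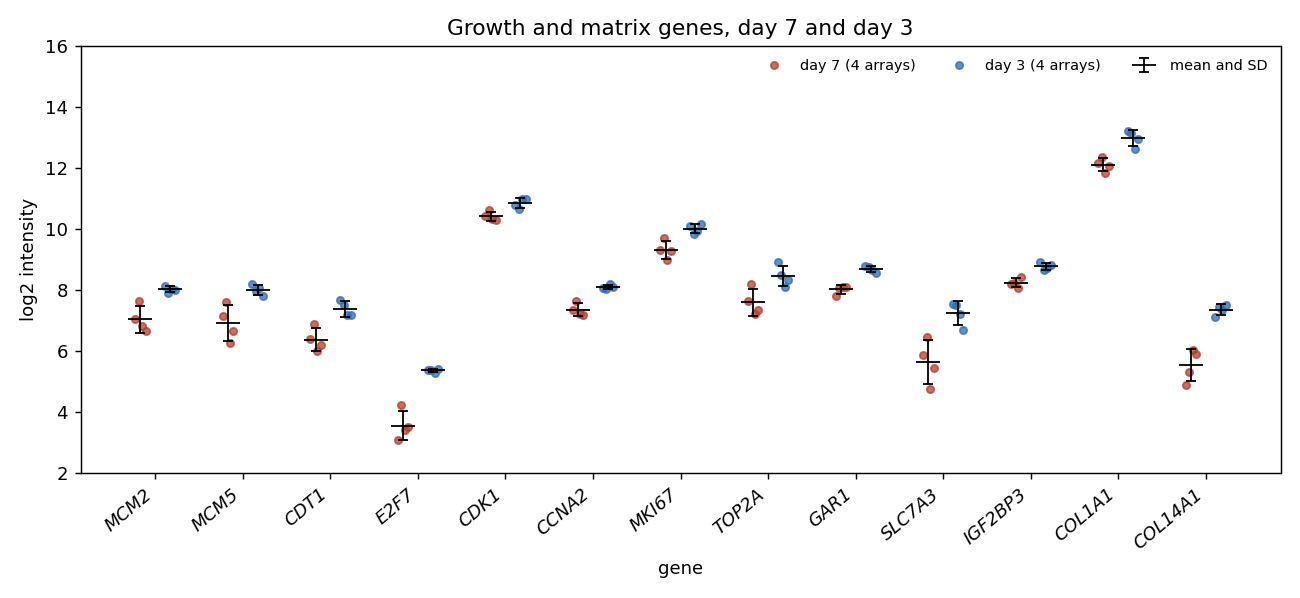
Log2 intensity of 13 genes of DNA replication, mitosis, ribosome assembly, amino acid transport, fetal growth and matrix on each of the 4 day 7 arrays (red, left of each pair) and the 4 day 3 arrays (blue, right), with the mean and SD in black. TOP2A is the gene whose ages overlap, and E2F7 and COL14A1 show the largest changes, at -1.81 each.

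The plot of growth and matrix genes by array also shows that the day 7 spread exceeded the day 3 spread for MCM2, MCM5, MKI67 and E2F7, with SDs of 0.44, 0.59, 0.30 and 0.49 at day 7 and 0.09, 0.17, 0.15 and 0.05 at day 3.

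Some genes that build ribosomes fell, while the ribosomal proteins themselves were not called. GAR1 (gene ID 422697), a part of the particle that modifies ribosomal RNA, stood at 7.80, 8.06, 8.10 and 8.09 at day 7, against 8.78, 8.75, 8.65 and 8.56 at day 3. The groups were 0.46 apart at their nearest, and GAR1 fell by 0.67 ± 0.09 on the log2 scale (SE, limma adjusted p = 1.07e-05). The ribosomal RNA methylase NOP2 fell by 0.74 ± 0.18 and the assembly factor NIP7 fell by 0.69 ± 0.17. Of 55 assembly and translation factors tested, 16 were called lower (29.1%) and 0 higher, beside 8.38% and 5.07% of all genes. The median change of the list was -0.23. Its lower count was 10 without day 7 array 3, and 9 without day 7 array 4 or without day 3 array 1. Of 63 ribosomal proteins tested by limma, 0 were called in either direction and 5 had an unadjusted p under 0.05, with a median change of 0.07 and no gene whose ages were separate. Their mean level was 13.41 to 13.58 at day 7 and 13.30 to 13.50 at day 3.

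Some genes that supply amino acids, polyamines and nucleotides fell too. SLC7A3 (gene ID 422213), a carrier of cationic amino acids, stood at 5.87, 6.44, 4.74 and 5.44 at day 7, against 7.53, 7.49, 7.20 and 6.69 at day 3. It fell by 1.61 ± 0.35 on the log2 scale (SE, limma adjusted p = 0.00369) with no overlap. SLC38A2, a carrier of small neutral amino acids, fell by 1.00 ± 0.21. Other genes of amino acid carriage were called higher. The glutamate carrier SLC1A1 rose by 0.78 to 1.12 and SLC3A1, a carrier subunit, by 0.43 to 0.56, whichever single array was left out. Of all solute carriers tested, 8.54% were called lower and 4.88% higher, near the shares of all genes. A common direction of amino acid carriers was not tested. The polyamine enzyme SRM fell by 0.77 ± 0.14 and AMD1, an enzyme of the same pathway, fell by 0.70 ± 0.11. ASNS, which makes asparagine, fell by 0.96 ± 0.27, a call lost without day 7 array 3 or 4, or without day 3 array 1 or 2. Of 25 genes of amino acid, one-carbon and nucleotide synthesis tested, 10 were called lower and 1 higher, beside 8.38% and 5.07% of all genes. The median change of the list was -0.41. The lower count was 5 without day 7 array 3, without day 7 array 4 or without day 3 array 1, and 6 without day 3 array 2. The gene called higher was CTPS2, a CTP synthase, at 0.72 ± 0.24 (SE, limma adjusted p = 0.0435). Its call was lost without day 7 array 3 or 4, or without day 3 array 1, 2 or 3.

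Growth factor genes of the embryo gave no common direction. Of 27 tested members of the insulin-like growth factor and fetal growth list, 5 were called lower (18.5%) and 2 higher (7.41%). Of all genes, 8.38% were called lower and 5.07% higher. The median change of the list was 0.10, and -0.01 with no filter, and 15 members had a change above 0. Without day 7 array 3 or without day 3 array 1, 3 were lower and 1 higher, and 3 were lower without day 3 array 4. MDK, the growth factor midkine, stood at 5.25, 5.81, 5.07 and 5.10 at day 7, against 6.97, 7.23, 6.32 and 6.64 at day 3, and fell by 1.48 ± 0.22 on the log2 scale (SE, limma adjusted p = 7.52e-05). FGFR1, a receptor of fibroblast growth factors, fell by 0.66 ± 0.12 and IGF2BP3, an RNA-binding protein of fetal tissue, fell by 0.55 ± 0.10. The members called higher were FGFR2, at 0.53, and IGFBP7, at 0.42, both named after their values were seen. Which of these calls was lost with an array left out is not given here. IGF2BP3 averaged 9.37 at day 1, 8.77 at day 3, 8.22 at day 7 and 7.56 at day 14. IGF1, IGF2 and IGF2BP1 were at background on all 8 arrays and were not tested.

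Part of the matrix genes of fibroblasts fell. COL1A1 (gene ID 395532), the main chain of type I collagen, stood at 12.16, 12.34, 11.84 and 12.05 at day 7, against 13.21, 13.13, 12.61 and 12.96 at day 3. COL14A1 (gene ID 396276), a collagen bound to fibrils, stood at 4.89, 5.31, 6.01 and 5.89 at day 7, against 7.10, 7.44, 7.32 and 7.50 at day 3. Neither overlapped between the ages. COL1A1 fell by 0.88 ± 0.14 on the log2 scale (SE, limma adjusted p = 0.000239) and COL14A1 fell by 1.81 ± 0.22 (SE, limma adjusted p = 4.73e-06). LOXL1, an enzyme that cross-links elastin, fell by 0.93 ± 0.21. COL1A2 fell by 0.46 ± 0.13, a call lost without day 7 array 3 or 4, or without day 3 array 1 or 2. COL3A1 stood at 13.74 to 13.85 at day 7 and 13.75 to 13.95 at day 3, and its change of -0.08 ± 0.07 was not called (limma adjusted p = 0.549). Of 55 matrix genes tested, 13 were called lower (23.6%) and 1 higher (1.82%), beside 8.38% and 5.07% of all genes. The median change of the list was -0.20. The lower count was 8 without day 7 array 1, 6 without day 7 array 3, without day 7 array 4 or without day 3 array 2, and 5 without day 3 array 1. Between day 14 and day 7, 5 matrix genes were called lower and 0 higher, COL1A1 and COL14A1 again among the lower ones, where 0.453% of all genes were called lower.

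**Figure D4:**
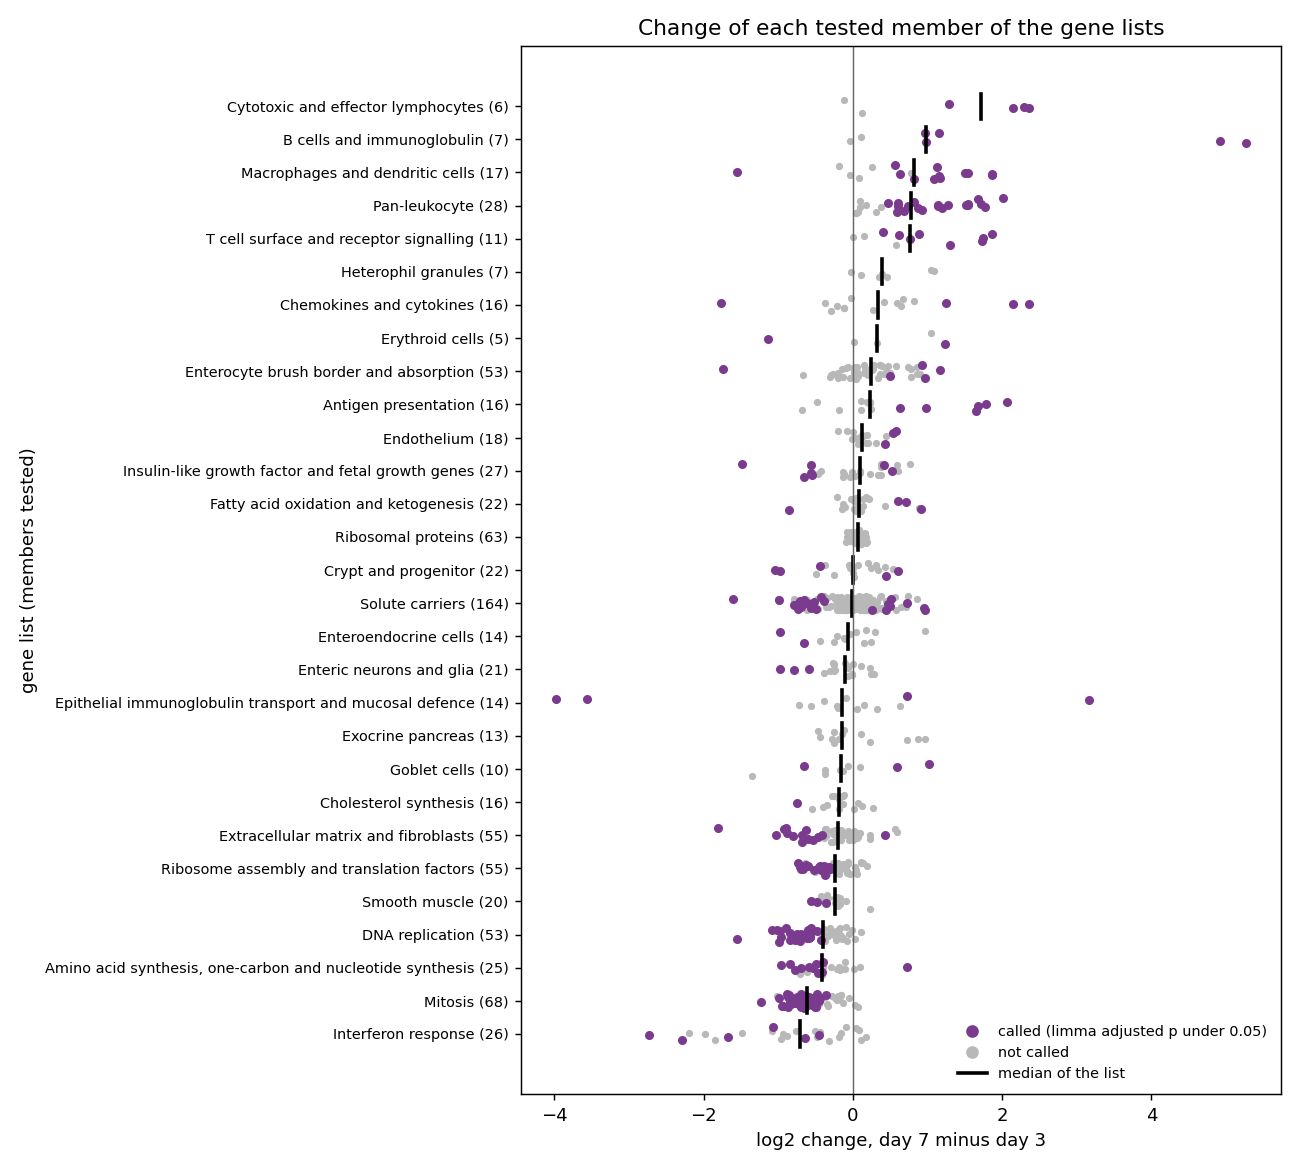
Change of each tested member of the 29 gene lists (log2, day 7 minus day 3), with called genes in purple, others in grey and the list median as a black bar, in order of that median. Mitosis and interferon response lie at the bottom (medians of -0.62 and -0.70) and ribosomal proteins cluster at 0.07; the order at the top depends on the filter, since with no filter the medians are 0.60 for pan-leukocyte, 0.12 for cytotoxic, 0.06 for T cell and 0.02 for B cell genes.

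The plot of changes by gene list sets the epithelium beside these groups. Of 53 brush border and absorption genes, 4 were called higher (7.55%) and 1 lower (1.89%), beside 5.07% and 8.38% of all genes, with a median change of 0.25. The higher count was 8 without day 7 array 1, 7 without day 7 array 2, and 1 without day 7 array 3, day 7 array 4 or day 3 array 1. The lower count was 2 without day 7 array 2 or day 3 array 4, and 0 without day 7 array 3. The meprin subunit MEP1B, a brush border protease, stood at 9.41, 9.12, 10.70 and 10.55 at day 7, against 8.42, 8.46, 8.93 and 9.31 at day 3. Its rise of 1.17 ± 0.29 (SE, limma adjusted p = 0.0093) came with day 7 arrays 3 and 4 above the others, and the call was lost without day 7 array 3. SLC51B, a subunit of the bile acid exporter, fell by 1.75 ± 0.45, a call that was also lost without day 7 array 3. Of 164 solute carriers tested, 8 were called higher (4.88%) and 14 lower (8.54%), with a median of -0.01. These shares were near those of all genes. The higher count was 3 without day 7 array 3, and 2 without day 7 array 4 or day 3 array 1. The lower count was 7 to 9 without day 7 array 1 or 3, or without day 3 array 1, 2 or 3. SLC1A1, a glutamate carrier, rose by 0.95 ± 0.19. Fatty acid oxidation had 3 of 22 higher (13.6%) and 1 lower (4.55%). The higher count was 1 without day 7 array 4, day 3 array 1 or day 3 array 2, and the lower count was 0 without day 7 array 3 or 4, or without day 3 array 1 or 3. ECI2, an enzyme for unsaturated fatty acids, rose by 0.72 ± 0.17. TFRC, the transferrin receptor for iron uptake, fell by 1.14 ± 0.20.

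Of the 14 tested genes of epithelial immunoglobulin transport and mucosal defence, 2 were called higher (14.3%), PIGR among them, and 2 lower (14.3%). Of all genes, 5.07% were called higher and 8.38% lower. The median change of the list was -0.15. NOXO1 and SPINK5, the members called lower, were among the largest falls of all genes. NOXO1 (gene ID 416546), the organiser of an epithelial oxidase, stood at 4.17, 7.02, 3.07 and 3.69 at day 7, against 8.82, 8.79, 9.11 and 7.14 at day 3. SPINK5 (gene ID 416235), an inhibitor of serine proteases, stood at 4.74, 5.18, 5.45 and 4.89 at day 7, against 6.69, 8.21, 11.31 and 8.31 at day 3. Day 7 array 2 of NOXO1 lay only 0.12 below day 3 array 4, and for SPINK5 day 3 array 3, which was also high in GKN2, was the highest. NOXO1 fell by 3.98 ± 0.68 on the log2 scale (SE, limma adjusted p = 0.000397) and SPINK5 fell by 3.57 ± 0.58 (SE, limma adjusted p = 0.000239).

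Other genes with large falls were not on that list. LYGL, a goose-type lysozyme, fell by 3.68 ± 1.01 on the log2 scale, a call lost without day 7 array 3 or 4, or without day 3 array 1 or 2. STEAP4, a metal reductase, was at background on all day 7 arrays and at least 6.28-fold lower than at day 3. CLDN1, a tight junction protein, stood at 5.48, 5.88, 5.74 and 5.51 at day 7, against 7.48, 8.26, 7.92 and 7.52 at day 3, and fell by 2.14 ± 0.22 (SE, limma adjusted p = 4.22e-07). APOA2, an apolipoprotein, fell by 2.53 ± 0.34, with day 7 arrays within 4.82 to 4.85 and day 3 arrays from 6.27 to 8.60. The glutathione transferase GSTT1L fell by 1.93 ± 0.39 and TUBAL3, an alpha tubulin, fell by 1.78 ± 0.17. Among the largest rises, DNASE1L3, a secreted nuclease, rose by 2.19 ± 0.24, and LOC769232, which has no further name in the files, by 2.12 ± 0.41.

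The interval between day 7 and day 14 was set against it directly. Only 72 genes were called between day 14 and day 7 (0.858%), 34 higher and 38 lower. The change between day 3 and day 7 differed from that between day 7 and day 14 for 27 genes (0.322%), being higher for 16 and lower for 11. Among the 16 were BLB1 (by 1.25, limma adjusted p = 0.00593), CD74 (by 1.25, adjusted p = 0.00475), GNLY (by 1.54, adjusted p = 0.0229) and TRBV6-5 (by 2.33, adjusted p = 0.0036). Among the 11 were CMPK2 (by -4.84, limma adjusted p = 0.00593), SLBP (by -2.70, adjusted p = 0.0253), CLDN1 (by -1.80, adjusted p = 0.0365) and GAR1 (by -0.81, adjusted p = 0.0089). JCHAIN and IGLL1 went on rising by 3.81 and 3.53 at day 14 against day 7 (limma adjusted p = 1.04e-09 and 6.86e-09). Both intervals share the day 7 arrays, and they too differ in length.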

How the data were processed

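The deposited intensity values are linear, 1 for each probe set of each array, and were made with GCRMA per the submitters' processing notes. GCRMA corrects background by probe sequence and gives low probe sets nearly constant values. The sources used here give neither its version nor whether the 28 arrays went through it in a single run. No scanner files were used. Of 38535 probe sets, 153 controls and reporters were left out, 27168 with a single gene symbol were kept, and 177 with several symbols and 11037 without one were not. Here log2 was taken, and the probe set with the highest 28-array mean stood for each of 13009 symbols, of which 8396 passed the filter and 4613 did not. For 1 gene called, which is not named, a second probe set was called in the opposite direction. Gene IDs of 26863 of 27178 probe sets were in the RefSeq gene table.

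limma 3.58.1 in R 4.3.3 was fitted with one mean per age (21 residual and 3.13 prior degrees of freedom), two-sided, and tested on simulated data. A fold is a lower bound where all 4 arrays of one age were at or below background, against that background. The number of arrays limits the precision. Arrays of an age are numbered in the order of their records, which pairs nothing, and 0 pairs of arrays held identical values. Named genes were the 12 largest rises and the 12 largest falls called with no overlap between ages, up to 5 called members of each of 29 lists by size of change, and defining genes of each cell type or process; other genes are said to be named after their values were seen. The groups, gene lists and tests were chosen with earlier results of these data known. Lists are described by counts and medians beside those of all genes, with no test of a list. Alternatives were another filter, normalization, pseudocount, choice of probe set, prior, samples fitted, and each array left out.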

Additional observations from a re-analysis of the deposited data

Results flagged for a closer look

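Among the 129 named genes, both ages were searched for an array far from the other 3 by Dixon's ratio at its 95% critical value. Of 258 sets of 4 arrays, 13 held such an array, and chance gives about 1 in 20. At day 7, array 2 stood high for TUBAL3 (5.54), LOXL1 (6.15) and TFRC (6.67) and low for MARCO (5.41), array 1 stood low for CCL1 (2.39) and GAR1 (7.80), and array 3 stood high for ST6GAL1 (8.78). At day 3, array 4 stood high for GZMK (3.35) and low for NOXO1 (7.14), array 3 stood low for E2F7 (5.28) and ACTG2 (14.25) and high for CD40LG (3.85), and array 1 stood high for PRC1 (6.10).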

How the results depend on the processing

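No paired analysis was possible because the labels number no arrays across ages. Of the 129 named genes, only COL3A1, which was not called, changed sign under an alternative run (0.09 with all probe sets averaged). Median centring reversed the balance of calls between day 3 and day 1 (908 higher and 1454 lower, beside 1263 and 897) and in the comparison of that interval with day 3 to day 7 (584 and 493, beside 374 and 734). With the day 7 and day 3 arrays fitted alone, 178 genes were called higher and 304 lower, as were 4 T cell genes higher and 11 interferon response, 13 DNA replication, 26 mitosis, 5 ribosome assembly and 8 matrix genes lower. This fit ended the calls of 43 named genes, among them CD40LG, IL8L2, C1QA, HBAD, MCM5, BRCA1, PCNA, CDK1, TOP2A, NOP2, NIP7, ASNS, CTPS2, COL1A2, MEP1B, SLC51B and SLC1A1. With no filter 14 named genes lost their calls, PCNA, CTPS2 and HBAD among them, and with all probe sets averaged 9 did, BRCA1, CTPS2 and COL1A2 among them. The stricter filter left 4 T cell and 3 B cell genes called, and 11 genes called higher between day 14 and day 7. Averaging all probe sets left 10 ribosome assembly and 8 matrix genes. The pseudocount of 16 gave 20 genes lower than in the day 7 to day 14 interval. Alternatives for the neighbouring intervals were chosen after seeing the data. With each array left out in turn, 198 to 490 genes were called higher and 353 to 863 lower, with 2 to 7 interferon response, 12 to 25 DNA replication, 9 to 17 ribosome assembly, 5 to 12 amino acid and nucleotide synthesis and 5 to 15 matrix genes. The causes were not tested. Transcripts near background limit what can be said of CD4, CD8A, CD79B, IGF1 and IGF2.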
